A study of Rattus norvegicus with 69 samples.

Results

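The nuclear-encoded subunits of the hepatic respiratory chain were examined as a gene family across all 8 groups of a rat liver RNA-seq study. Members were taken by name from the protein-coding rows of the count table, namely the genes of the Ndufa, Ndufb, Ndufc, Ndufs, Ndufv, Uqcr, Atp5, Cox4, Cox5, Cox6, Cox7 and Cox8 families together with Sdha, Sdhb, Sdhc, Sdhd and Cyc1. This gave 93 of the 38513 genes listed, or of the 22926 that were marked as protein-coding. By complex they fell into 36 genes of complex I, 7 complex I assembly factors (the Ndufaf genes, which the Ndufa name takes in), 4 of complex II, 9 of complex III, 20 of complex IV and 17 of complex V. Ndufa4 and its homologue Ndufa4l2 were counted under complex IV, where their proteins are placed today in spite of the older name. The members lay on 19 chromosomes, with 3 members on X, and their combined exons measured from 289 to 4968 bases (median 762).

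The respiratory chain sits in the inner mitochondrial membrane. Complex I (NADH dehydrogenase) and complex II (succinate dehydrogenase, which is also an enzyme of the citrate cycle) pass electrons to ubiquinone, complex III (cytochrome bc1) hands them on to cytochrome c, and complex IV (cytochrome c oxidase) passes them to oxygen. The proton gradient built on the way drives ATP synthesis by complex V, and in the liver this oxidation serves the breakdown of fatty acids, the synthesis of glucose and the urea cycle. A few subunits of complexes I, III, IV and V are made inside the mitochondrion from its own genome, and those genes were not analysed here. All others are transcribed in the nucleus and imported as proteins.

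All animals were Wistar rats. In the 6 groups that the study describes, males were made obese on a high-fat diet, were then offered a high-fat and a low-fat diet side by side during treatment, and gave their livers after an overnight fast. These groups are RYGB (Roux-en-Y gastric bypass, labelled Bypass, n = 14), sham surgery (labelled Sham, n = 12), liraglutide+PYY (labelled PYY_Lira, n = 11), PYY alone (n = 5), liraglutide alone (labelled Lira, n = 5) and saline (n = 8). Liraglutide is an agonist of the GLP-1 receptor, PYY a gut hormone that lowers food intake, and saline the vehicle of the drug arms. The remaining libraries are labelled BWM (8 of them) or Lean (6), groups that are not described in the study's text and are named here as labelled. Prolonged feeding is stated for 6 liraglutide+PYY and 3 saline animals, and the labels do not say which. A diet-induced obese rat with early fatty liver models no advanced liver disease.

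Every library also carries a batch label, A or B, whose meaning the sources used here do not give. Batch A held 41 libraries, with 11 of RYGB, 7 of sham, 6 of liraglutide+PYY, 3 of saline and all of BWM and Lean. Batch B held 28, with 3 of RYGB, 5 each of sham, liraglutide+PYY and saline, and all of PYY and liraglutide. Hence PYY and liraglutide share a batch with 5 of the 8 saline libraries, BWM and Lean share one with 7 of the 12 sham libraries, and the remaining controls entered those comparisons through the batch term of the model. The 6 liraglutide+PYY and 3 saline animals with prolonged feeding equal in number the batch A libraries of these groups. No label says that they are the same animals, and if they are, batch and feeding cannot be told apart in these groups. Total counts ranged from 9110860 to 27559144 per library (median 21027325), and levels are given as CPM, counts relative to the TMM-scaled total of each library. In batch B, 6 libraries lay apart from the rest on the first principal component of all genes, namely sham replicate 12, PYY replicate 5, liraglutide replicate 4 and liraglutide+PYY replicates 8, 9 and 11. The 6 had values of 112 to 158.9 on that component. Saline replicate 9 (80) and liraglutide replicate 5 (79.4) lay between them and the other batch B libraries (11.1 to 55.4) and were kept. The line was drawn with the data known, and results without the 6 libraries depend on it. Sums, batch differences and drug effects are given with and, where they moved, without the 6 libraries. The livers carried their defining markers, with a median of 99600 CPM for albumin (Alb). Of the 7 skeletal muscle markers, Ckm, Mb, Myh1, Myh2, Myh4 and Acta1 had a median of 0 and Tnnt3 one of 0.237 CPM, and Mb reached 5.73 CPM in 1 library. In whole liver, fewer cells of a type and less RNA per cell cannot be told apart.

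Of the 93 members, 88 passed the filter on low counts and were tested. The other 5 were Cox6a2, Cox7a1, Cox7b2, Cox8b and Cox8c, which are known as complex IV isoforms of muscle, testis or other tissues. Cox7b2 and Cox8c had a count of 0 in all 69 libraries, which over the summed 1425 M counts allows a level of up to 0.002106 CPM (unscaled), by counting error alone. Where complex IV has paired isoforms, the liver form was listed at a level several orders above its partner. Cox4i1 had a median of 347 CPM in batch A, against 0.229 CPM for Cox4i2, an isoform best known from lung. Cox6a1 stood at 165 CPM against 0.0419 CPM for Cox6a2, Cox7a2 at 60.9 CPM against 0.0754 CPM for Cox7a1, and Cox8a at 132 CPM against 0.0535 CPM for Cox8b. Cox6b2, an isoform known from testis, had 0.177 CPM, and its partner Cox6b1 was listed in the table as a pseudogene and is no member.

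Levels between genes were compared per kilobase of exon, as medians over the 41 batch A libraries. In complex V the highest was Atp5b, the catalytic beta subunit, with 638 CPM per kilobase. In complex IV it was Cox4i1, a subunit tied to regulation of the enzyme by ATP, with 498 CPM per kilobase, and in complex I the accessory subunit Ndufa6, with 319 CPM per kilobase. The highest of complex III was Uqcr10, a small accessory subunit, with 199 CPM per kilobase, and that of complex II was Sdhd, a membrane anchor, with 139 CPM per kilobase. Cyc1, the haem-bearing cytochrome c1 of complex III, had 102 CPM per kilobase. In batch B the order changed in complexes II and V, where Sdhb (193 CPM per kilobase) and Atp5e (949 CPM per kilobase) were highest. The Ndufaf assembly factors, which help to build complex I but do not stay in it, were the lowest group, with a highest median of 13.03 CPM per kilobase (Ndufaf3) in batch A.

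Summed over all 93 members, the respiratory chain took up 10095 ± 888 CPM in RYGB livers and 10048 ± 1576 CPM in sham livers of batch A (SD, n = 11 and 7). In batch B the sums were 15194 ± 2104 CPM in RYGB livers and 16099 ± 4158 CPM in sham livers (SD, n = 3 and 5). The means of RYGB and sham thus differed by less than 1 SD of sham within each batch, while the means of batch B lay above those of batch A. Liraglutide+PYY livers had 19458 ± 4276 CPM in batch B and 8699 ± 535 CPM in batch A (SD, n = 5 and 6), against 14624 ± 1530 CPM and 9229 ± 692 CPM in saline livers (SD, n = 5 and 3). PYY livers had 16577 ± 4481 CPM and liraglutide livers 18146 ± 6408 CPM (SD, n = 5 each, batch B), and BWM and Lean livers had 9568 ± 1328 and 10206 ± 878 CPM (SD, n = 8 and 6, batch A). Without the 6 libraries that lay apart, the batch B sums were 15111 CPM in liraglutide+PYY livers (14557 and 15665 CPM, n = 2), 14768 ± 2223 CPM in PYY livers and 15700 ± 3857 CPM in liraglutide livers (SD, n = 4 each), and 14289 ± 1097 CPM in sham livers (SD, n = 4). The mean of liraglutide+PYY then lay within 1 SD of saline.

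**Figure D1:**
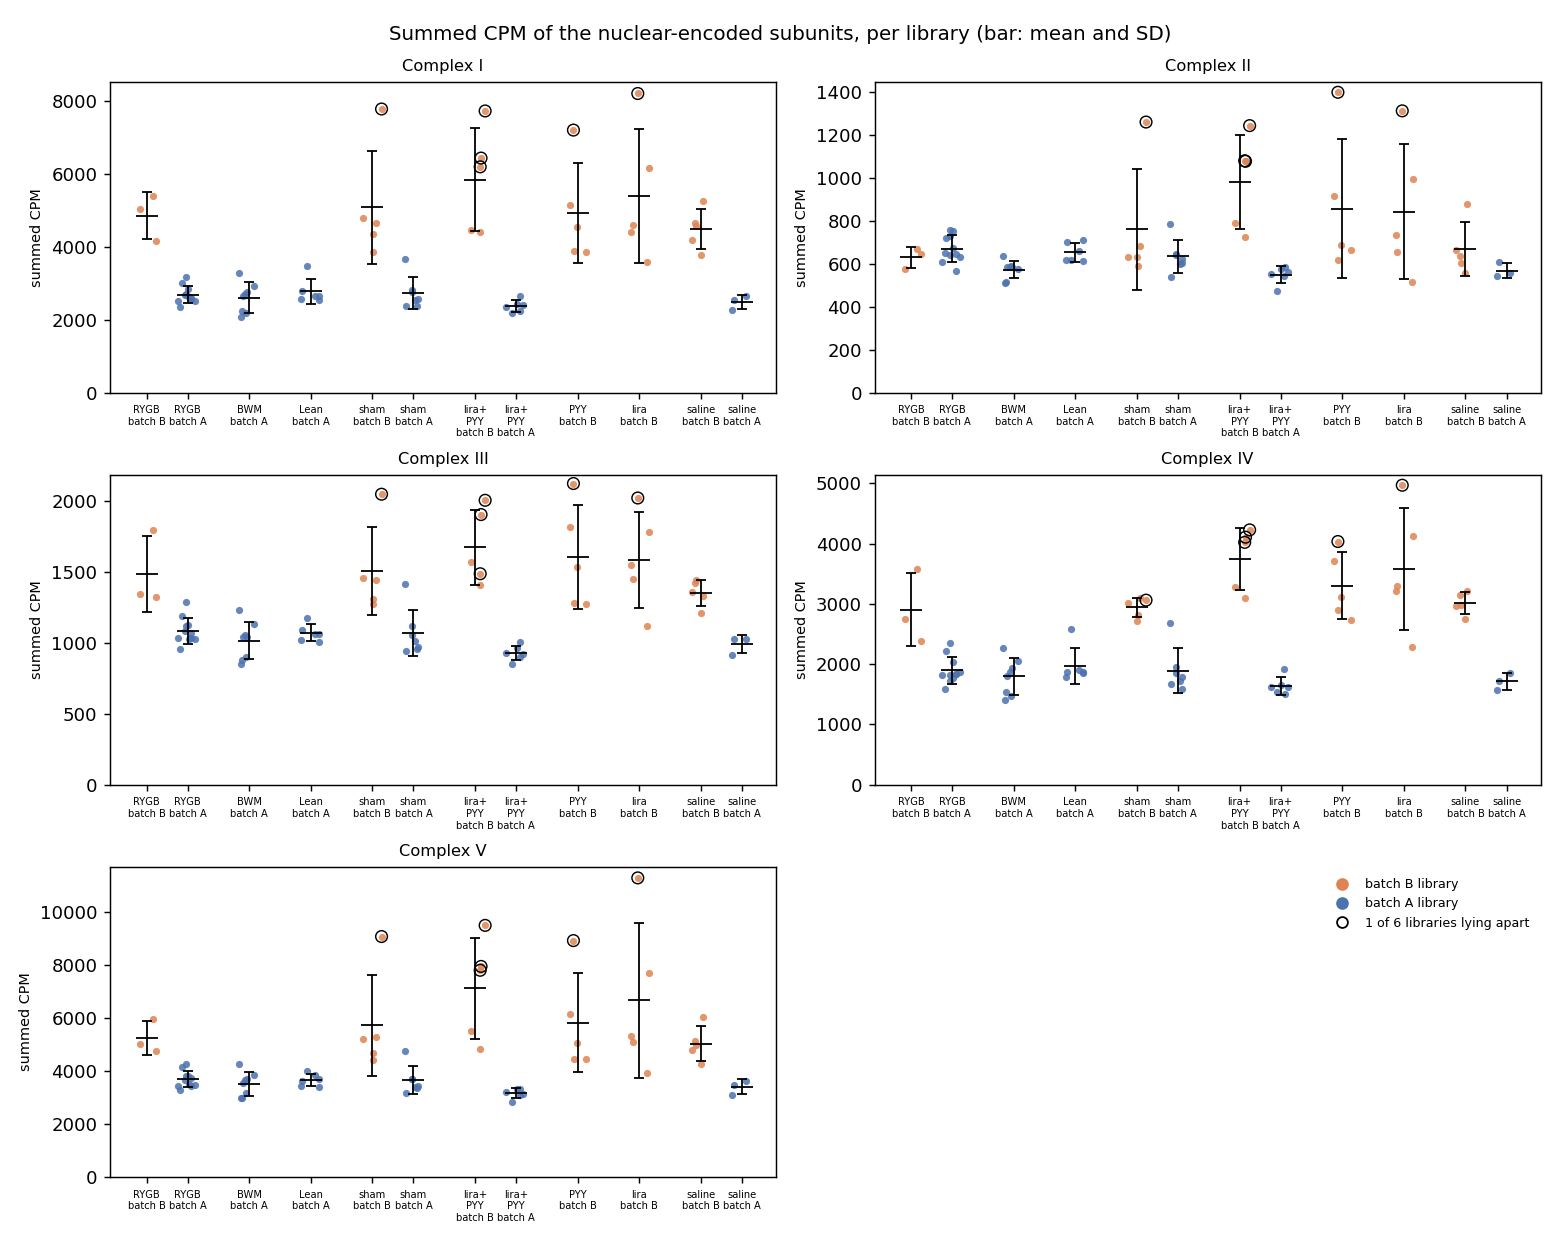
Summed CPM of the nuclear-encoded subunits of each complex (y axis, linear, from 0) in every library, by group and batch on the x axis, with mean and SD as bars. Batch B points lie mostly above batch A points for complexes I, III, IV and V, complex II shows the batches overlapping widely, and the ringed libraries are the 6 that lay apart.

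RYGB livers were set against sham livers. The study states that RYGB rats ate fewer calories, lost weight and turned towards the low-fat diet. In this contrast the operation alone cannot be told apart from those changes. Of the 88 tested members, 0 were higher and 1 was lower in RYGB livers (edgeR's quasi-likelihood test with a batch term, adjusted p under 0.05 by Benjamini-Hochberg over all 16676 tested genes), where 3.12% of all genes were called, 1.58% as lower. The 1 gene was Ndufa4l2, which was also the only member at an unadjusted p under 0.05, where 12.7% of all genes were. The median log2 fold change of the members was 0.004, against -0.005 over all genes, and 45 members had a positive and 43 a negative value. By complex the medians were -0.014 for complex I, 0.06 for complex II, 0.049 for complex III, 0.048 for complex IV and -0.017 for complex V, and all 7 assembly factors had values below 0 (from -0.267 to -0.002), none of which passed the test. For 86 of the 88 members the 95% interval of the fold change lay within 2-fold in either direction, and for 75 within 1.5-fold. Cox4i1 may serve as an example of an abundant member, with 337 to 472 CPM in RYGB livers (median 360) and 287 to 512 CPM in sham livers (median 347) of batch A, so that the groups overlapped.

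Ndufa4l2 encodes a homologue of the complex IV subunit NDUFA4, is known in human cells as a target of hypoxia-inducible factor, and lies at chr7:70821904-70824085 (Rnor_6.0, plus strand). It was a very rare transcript in all livers. In RYGB livers its level was 0.08, 0.05, 0, 0.15, 0, 0.05, 0, 0.08, 0, 0 and 0.04 CPM in batch A (replicates 1 to 11) and 0, 0 and 0 CPM in batch B. In sham livers it was 0.09, 0.46, 0.22, 0.27, 0.47, 0.5 and 0.09 CPM in batch A and 0.24, 0.51, 0.3, 0.4 and 0.07 CPM in batch B. These levels come from rounded counts, in which a count of 0.5 became 0. Before rounding, only 3 RYGB libraries of batch A and 1 of batch B held no count. All sham livers had at least 1 count, and the 2 groups overlapped only at the low end of sham. The log2 fold change was -2.82 (SE 0.54, edgeR adjusted p = 0.000445). Since the gene never exceeded 25 counts in a library, summed counts are the plainer measure, with 13 counts in RYGB libraries out of 278.4 M and 75 in sham libraries out of 241.7 M. Their ratio was 0.151 (95% interval 0.0766 to 0.273, counting error only).

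Within batch A alone the ratio of summed counts was 0.158 (95% interval 0.0763 to 0.301), from 12 counts in RYGB and 49 in sham, and the log2 fold change was -2.69 (SE 0.59, adjusted p = 0.00468). Within batch B, 1 count in the 3 RYGB libraries stood against 26 in the 5 sham libraries, a ratio of 0.096 (95% interval 0.00234 to 0.584), and the call was not reached (adjusted p = 0.0907). The difference of the effect between batches was called for 0 members by edgeR (0% of all genes, 5 members at an unadjusted p under 0.05) and for 0 by limma-voom. In 28.99% of the libraries Ndufa4l2 held a fraction of a count, as given to reads that match or overlap more than 1 gene. Its abundant homologue Ndufa4 (chr4:38233680-38240848, minus strand), which shares its place in complex IV, was not called, with medians of 248 CPM in RYGB and 262 CPM in sham livers of batch A. No cell type marker was called in RYGB versus sham within either batch. In batch A every Kupffer cell marker was above 0 (0.296 to 1.62) and every blood marker below 0 (-1.04 to -0.944). In batch B both lists held values of either sign. The part of these shifts in the level of Ndufa4l2 was not tested.

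In the other groups Ndufa4l2 lay in between or higher, with wide spreads. It averaged 0.155 ± 0.107 CPM in BWM livers and 0.205 ± 0.245 CPM in Lean livers (SD, n = 8 and 6). Compared with BWM, RYGB livers had a log2 fold change of -1.93 (SE 0.62, adjusted p = 0.131), which was called only when RYGB replicate 4 was left out (-2.36, adjusted p = 0.0476). Saline livers ranged from 0.119 to 1.115 CPM in batch B and from 0.0419 to 0.247 CPM in batch A. Liraglutide+PYY livers ranged from 0 to 0.118 CPM in batch B, just below every saline liver of that batch, and from 0.0707 to 0.346 CPM in batch A, where they overlapped with saline. The 0 in batch B stems from rounding, as the lowest count there was 0.5. Over both batches the log2 fold change of liraglutide+PYY was -1.60 (SE 0.54, p = 0.00452, adjusted p = 0.454), so that it did not pass the test across all genes. The promoter of Ndufa4l2 in RefSeq (GRCr8, chr7:65241919-65242218, plus strand, from 250 bases before to 50 after the start) is shown because this was the one member that differed after surgery.
Ndufa4l2 promoter: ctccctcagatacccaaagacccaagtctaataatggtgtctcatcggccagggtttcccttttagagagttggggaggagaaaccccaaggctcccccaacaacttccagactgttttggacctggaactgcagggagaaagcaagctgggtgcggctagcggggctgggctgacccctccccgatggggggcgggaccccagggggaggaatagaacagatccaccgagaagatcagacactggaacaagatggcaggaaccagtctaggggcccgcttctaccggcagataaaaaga
It is in lower case throughout because it held no match to any of the 5 short motifs described further on, the hypoxia response core ACGTG included, which says only that these letters are not in this window.

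**Figure D2:**
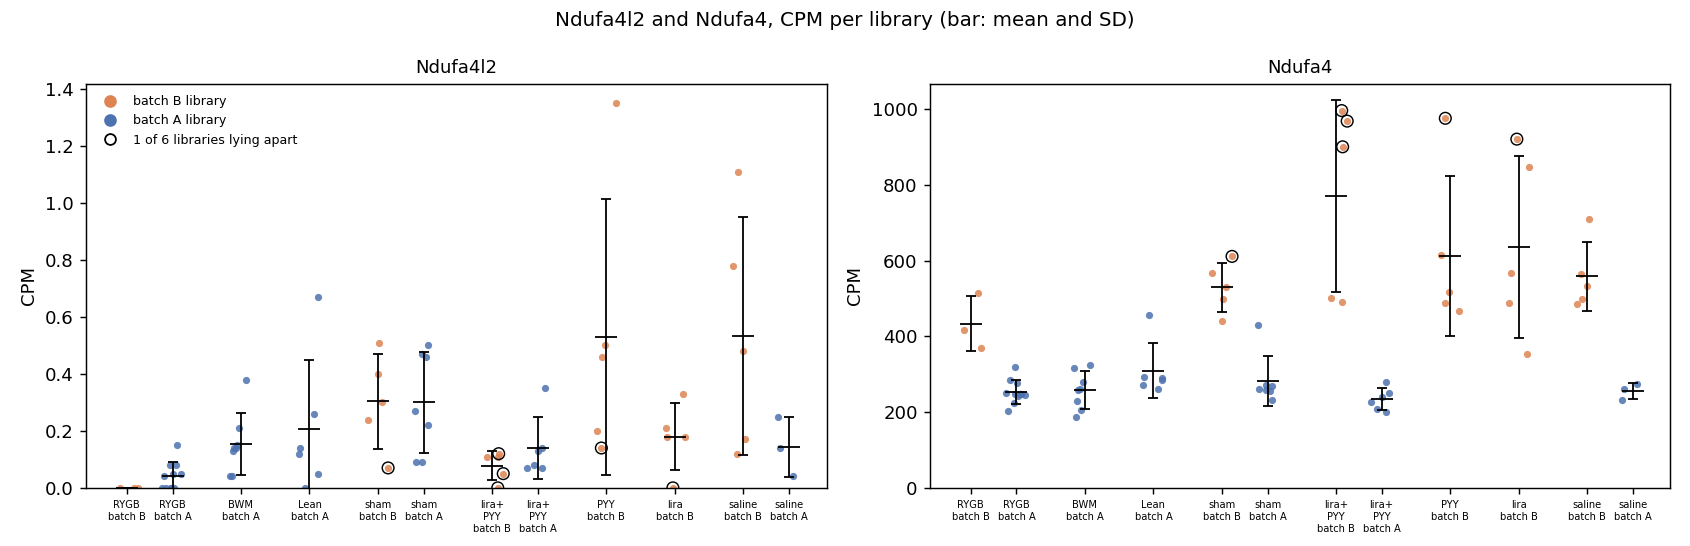
Ndufa4l2 (left) and Ndufa4 (right) in CPM (y axes, linear, from 0) in every library, by group and batch, with mean and SD as bars that are clipped at 0. RYGB points of Ndufa4l2 lie between 0 and 0.15 CPM and sham points between 0.07 and 0.51 CPM, while Ndufa4 is mostly higher in batch B.

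The drug arms were set against saline, and the 3 comparisons share the 8 saline libraries. For liraglutide+PYY rats too, the study states fewer calories eaten, weight loss and a turn towards the low-fat diet. For liraglutide alone it states a weight loss that was later regained. In these contrasts the drugs alone cannot be told apart from those changes. None of the 88 members was called for liraglutide+PYY, PYY or liraglutide, where 0.006%, 0% and 0.006% of all genes were called, and DESeq2 and limma-voom called 0 members as well. At an unadjusted p under 0.05 there were 7 members for liraglutide+PYY, 3 for PYY and 13 for liraglutide, where 10.9%, 4.95% and 6.22% of all genes were. The median log2 fold change over members was 0.094, 0.127 and 0.198 in the same order, against 0.001, 0.036 and 0.019 over all genes. With the 6 libraries that lay apart left out it was -0.053, 0.060 and 0.099, with 1, 9 and 1 members at an unadjusted p under 0.05 and 0 called. In liraglutide livers 76 of the 88 members had a positive value and 12 a negative one, with the highest median in complex V (0.339). Of all genes, 52.7% were positive there. PYY leaned the same way, with 71 members positive and 17 negative (55.1% of all genes positive). For liraglutide+PYY the numbers were 55 and 33 (50.1% of all genes positive). The intervals were wider than for RYGB, as they lay within 1.5-fold for 56 members with liraglutide+PYY, 50 with PYY and 40 with liraglutide.

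The members of lowest p in each drug arm illustrate the sizes reached. With liraglutide these were Ndufb8, an accessory subunit of complex I (log2 fold change 0.54, SE 0.19), Cox5a, a core-near subunit of complex IV (0.46, SE 0.17), and Atp5d, the delta subunit of the ATP synthase rotor (0.44, SE 0.16), with adjusted p of 0.568, 0.617 and 0.623. Ndufb8 ranged from 56.7 to 236 CPM in liraglutide livers and from 69.5 to 96.7 CPM in saline livers of the same batch, so that the groups overlapped. It was called when liraglutide replicate 2 was left out (log2 fold change 0.72, adjusted p = 0.049). With PYY they were Cox5a (0.42, SE 0.17), Uqcrc2, a core protein of complex III (1.07, SE 0.44), and Ndufs1 (0.38, SE 0.18), each with an adjusted p of 0.947. With liraglutide+PYY, beside Ndufa4l2, they were Atp5f1, the peripheral stalk subunit b of complex V (0.90, SE 0.34), and Ndufab1, the mitochondrial acyl carrier protein (0.50, SE 0.25), both with an adjusted p of 0.454. Leaving out the 6 libraries, Ndufb8 had 0.25 with liraglutide and Uqcrc2 0.21 with PYY, while Atp5f1 had -0.03 and Ndufab1 -0.10 with liraglutide+PYY.

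No member was called in BWM or Lean livers against sham. Of all genes, 0.042% were called for BWM and 0.612% for Lean (0.48% higher), the DESeq2 and limma-voom counts of members were 0 too, and 0 members for BWM and 1 for Lean had an unadjusted p under 0.05. The median log2 fold change of the members was -0.023 in BWM and 0.05 in Lean livers, and for 84 members each the interval lay within 2-fold. The lowest p in Lean livers belonged to Sdhb, the iron-sulphur subunit of complex II, with 132 ± 14.9 CPM in Lean and 114 ± 18.4 CPM in sham livers of batch A (SD, n = 6 and 7, log2 fold change 0.24, SE 0.11, adjusted p = 0.671). In BWM livers it was Atp5s, also called factor B (-0.32, SE 0.18, adjusted p = 0.99985), followed by Ndufa4l2 (-0.89) and Ndufaf1 (-0.33), and in Lean livers Sdhb was followed by the flavoprotein-arm subunit Ndufv2 (0.23) and by Cox7b of complex IV (0.33). RYGB against BWM likewise gave 0 calls among members (1.27% of all genes called, 0.768% higher, 1 member at an unadjusted p under 0.05, and 0 by DESeq2 and limma-voom). In batch A alone, which holds every BWM library, 2 members were called higher in RYGB, namely Ndufs1 (0.36, adjusted p = 0.0453, against 0.28 and 0.639 over both batches) and Sdhc, a membrane anchor of complex II (0.26, adjusted p = 0.0202). No share of all genes called is given for that separate fit, so these 2 calls are not read as particular to the members. The effect of RYGB over sham minus that of liraglutide+PYY over saline was not called for any member either (0.036% of all genes, 0.024% higher and 0.012% lower, 3 members at an unadjusted p under 0.05), with Atp5f1 lowest in p (-1.06, SE 0.44, adjusted p = 0.378), then Atp5l (-0.65) and Ndufb6 (-0.70).

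**Figure D3:**
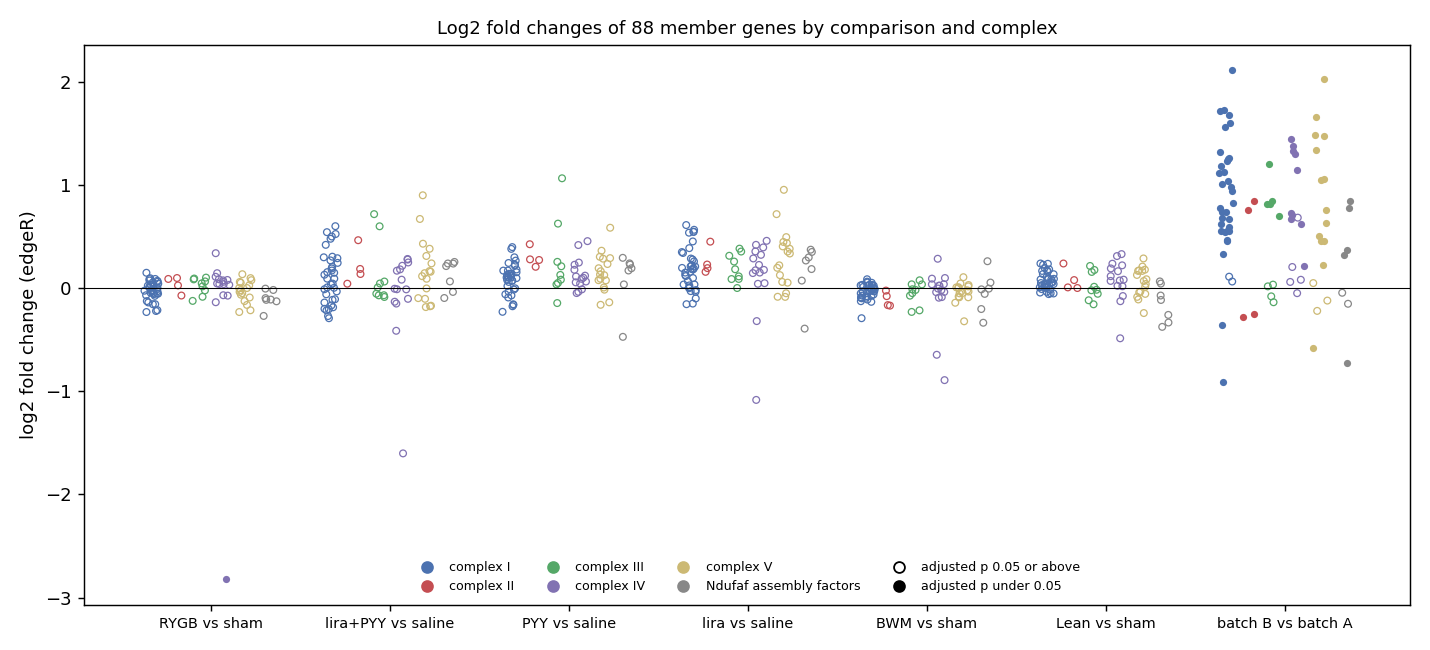
Log2 fold change (y axis) of each of the 88 tested members in 7 comparisons (x axis), coloured by complex, with filled points where the adjusted p is under 0.05. The treatment comparisons centre near 0 with Ndufa4l2 as the only filled point, and batch B versus batch A has 72 filled points, 66 of them above 0.

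Batch was by far the larger difference. In batch B, 66 of the 88 tested members were higher and 6 lower than in batch A with group in the model (adjusted p under 0.05), where 60.6% of all genes were called, 33.7% higher and 26.9% lower. The median log2 fold change of the members was 0.71, against 0.09 over all genes. Read against that background, most genes differed between batches, and the members were called higher in a share of 75% (66 of 88) where 31.7% of the other protein-coding genes were. Within single groups, members were higher and lower in 46 and 8 cases in RYGB, 53 and 4 in sham, 65 and 0 in liraglutide+PYY and 41 and 3 in saline, where 35.7% (18% higher, 17.7% lower), 37.3% (21.5% and 15.8%), 49.5% (26.2% and 23.3%) and 15.9% (7.26% and 8.65%) of all genes were called. Of the members, 36 were called higher in batch B in all 4 groups, 0 were called lower in all 4, and 2 were called lower in RYGB and higher in liraglutide+PYY, namely Atp5f1 (-1.26 and 0.94) and Cox5a (-0.64 and 0.51). The liraglutide+PYY value of Atp5f1 included the 3 libraries of that group that lay apart. With these and the other 3 libraries left out it was -0.46 (adjusted p = 0.324), and Atp5f1 was called lower in RYGB, sham and saline livers, so that Cox5a alone kept its opposite calls (-0.63 in RYGB, 0.56 in liraglutide+PYY). The members called higher in all 4 groups then numbered 44. No share over all genes was set beside these counts over the 4 groups, so they are not read as particular to the members. The meaning of the batch label is not given, so whether it stands for the animals, the tissue or the libraries cannot be told apart.

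The summed level of each complex moved by a different amount. Averaged over the 4 groups held by both batches, the log2 ratio of batch B over batch A was 0.98 (SD 0.22) for complex I, 0.81 (SD 0.27) for complex IV, 0.73 (SD 0.31) for complex V and 0.56 (SD 0.19) for complex III. It was 0.31 (SD 0.39) for complex II and 0.17 (SD 0.31) for the assembly factors, so that for these the mean was smaller than the spread between groups. In complex II the ratio was -0.09 in RYGB and 0.84 in liraglutide+PYY. The means without the 6 libraries were 0.83 for complex I, 0.75 for complex IV, 0.55 for complex V, 0.49 for complex III, 0.15 for complex II and 0.03 for the assembly factors, and the complex II ratio in liraglutide+PYY was 0.46. With total counts in place of TMM as the scale, the mean for complex I was 0.84, and its ratio in liraglutide+PYY was 0.88 instead of 1.30. Called higher were 32 of 36 tested members of complex I, 13 of 17 of complex V, 10 of 15 of complex IV, 5 of 9 of complex III, 2 of 4 of complex II and 4 of 7 assembly factors. Of the other protein-coding genes 31.7% were called higher, and 73.7% of those under 500 bases of exon. These counts are therefore not read as particular to a complex.

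The strongest difference by p was that of Ndufa5, an accessory subunit of the complex I matrix arm. Its levels ranged from 107 to 273 CPM in batch B (median 160) and from 36.9 to 105 CPM in batch A (median 52.9), with no overlap between batches. The log2 fold change was 1.73 (SE 0.11, adjusted p = 2.77e-21), and within groups it was 1.83 in RYGB, 1.52 in sham, 1.89 in liraglutide+PYY and 1.67 in saline. The next by p were Cox7c, a small subunit of complex IV (1.33, SE 0.09), Ndufb9 (1.12, SE 0.08), the stalk subunit Atp5j (1.48, SE 0.11) and the membrane subunit Atp5i of complex V (1.49, SE 0.11). They were followed by Ndufb2 (1.72, SE 0.13), Ndufb4 (1.26, SE 0.10), Atp5j2 (1.05, SE 0.09), Ndufa1 (1.61, SE 0.13) and Uqcrq of complex III (1.21, SE 0.10), with adjusted p between 1.29e-19 and 2.22e-16. Ndufb2, Ndufb4, Ndufb9 and Ndufa1 are accessory subunits of complex I, most of them in its membrane arm. In 5 members (Ndufa1, Ndufa5, Ndufb2, Cox7c and Atp5e) every batch B library lay above every batch A library, where 0.822% of all genes did so.

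The highest fold changes belonged to Ndufc1 of complex I (2.12, SE 0.24) and Atp5o, the oligomycin sensitivity subunit of complex V (2.03, SE 0.23). Both were high in the 6 libraries that lay apart. Atp5o had 2121 CPM in sham replicate 12, 1509 CPM in PYY replicate 5, 1892 CPM in liraglutide replicate 4 and 1677, 999.7 and 987.8 CPM in liraglutide+PYY replicates 8, 9 and 11. In the other 22 batch B libraries it ranged from 237 to 768 CPM, and in batch A from 116 to 261 CPM. Ndufc1 ranged from 521 to 1734 CPM in the 6 libraries, from 121 to 778 CPM in the other batch B libraries and from 66.9 to 139 CPM in batch A. Summed over all members, the 6 libraries reached 20671 to 27929 CPM, the other batch B libraries 11510 to 20857 CPM and batch A libraries 7884 to 13396 CPM. When these were left out, the log2 fold change was 1.35 for Ndufc1 (SE 0.15, adjusted p = 8.02e-12) and 1.33 for Atp5o (SE 0.11, adjusted p = 2.97e-16), below those of Ndufa5 (1.66), Atp5i (1.53) and Ndufb2 (1.44), so that their place as the highest rested on these libraries. In all, 76 members were then called, 66 higher and 10 lower. No share of all genes called is given for that fit, so these counts are not read as particular to the members.

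Only 6 members were called lower in batch B, and they included core and catalytic subunits. Ndufs1, the large iron-sulphur subunit of the NADH-oxidising arm of complex I, ranged from 21.5 to 55.2 CPM in batch B (median 33.9) and from 40.7 to 97.2 CPM in batch A (median 65.8). Its log2 fold change was -0.91 (SE 0.10, adjusted p = 1.17e-11), with -1.35 in RYGB, -1.12 in sham, -0.31 in liraglutide+PYY and -0.99 in saline, of which that in liraglutide+PYY was not called (adjusted p = 0.114). The others were the assembly factor Ndufaf1 (-0.73, SE 0.14), the catalytic alpha subunit Atp5a1 of complex V (-0.58, SE 0.11), Ndufa10 of complex I (-0.35, SE 0.07), Sdhc (-0.27, SE 0.09) and Sdha (-0.25, SE 0.10). Atp5a1 ran opposite to its partner in the catalytic hexamer, Atp5b, which was higher in batch B (0.46, SE 0.09). Leaving out the 6 libraries, Atp5b had 0.27 (adjusted p = 0.000254), Ndufaf1 -0.99 and Atp5a1 -0.66.

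Complex II was split in its 4 subunits. Sdhb rose in batch B (0.76, SE 0.07, adjusted p = 7.89e-16), with 181 ± 42.6 CPM in batch B and 123 ± 10.8 CPM in batch A of RYGB livers (SD, n = 3 and 11), and 184 ± 11.6 CPM and 114 ± 18.4 CPM in sham livers (SD, n = 5 and 7). Sdhd rose too (0.85, SE 0.17, adjusted p = 1.40e-05), though within RYGB (0.33) and saline (0.60) it was not called. Leaving out the 6 libraries, Sdhd had 0.39 (adjusted p = 0.000202), Sdha -0.45 (adjusted p = 1.21e-05) and Sdhb 0.71. The flavoprotein Sdha, which holds the site that oxidises succinate, and Sdhc fell, and the Sdha call was lost without RYGB replicate 12, RYGB replicate 13, sham replicate 8 or sham replicate 9 (adjusted p of 0.0855, 0.052, 0.0516 and 0.0555). Sdha had 129 ± 27.5 CPM in batch B and 210 ± 27.3 CPM in batch A of RYGB livers (SD, n = 3 and 11), whereas in liraglutide+PYY livers it had 190 ± 27.0 and 170 ± 26.9 CPM (SD, n = 5 and 6). The 3 RYGB libraries of batch B therefore lay below all 11 of batch A, and the liraglutide+PYY libraries of both batches overlapped. Cyc1 was not called between batches (0.02, 95% interval -0.11 to 0.15), nor did the liver isoforms Cox6a1 (-0.05) and Cox8a (0.08) reach the threshold.

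**Figure D4:**
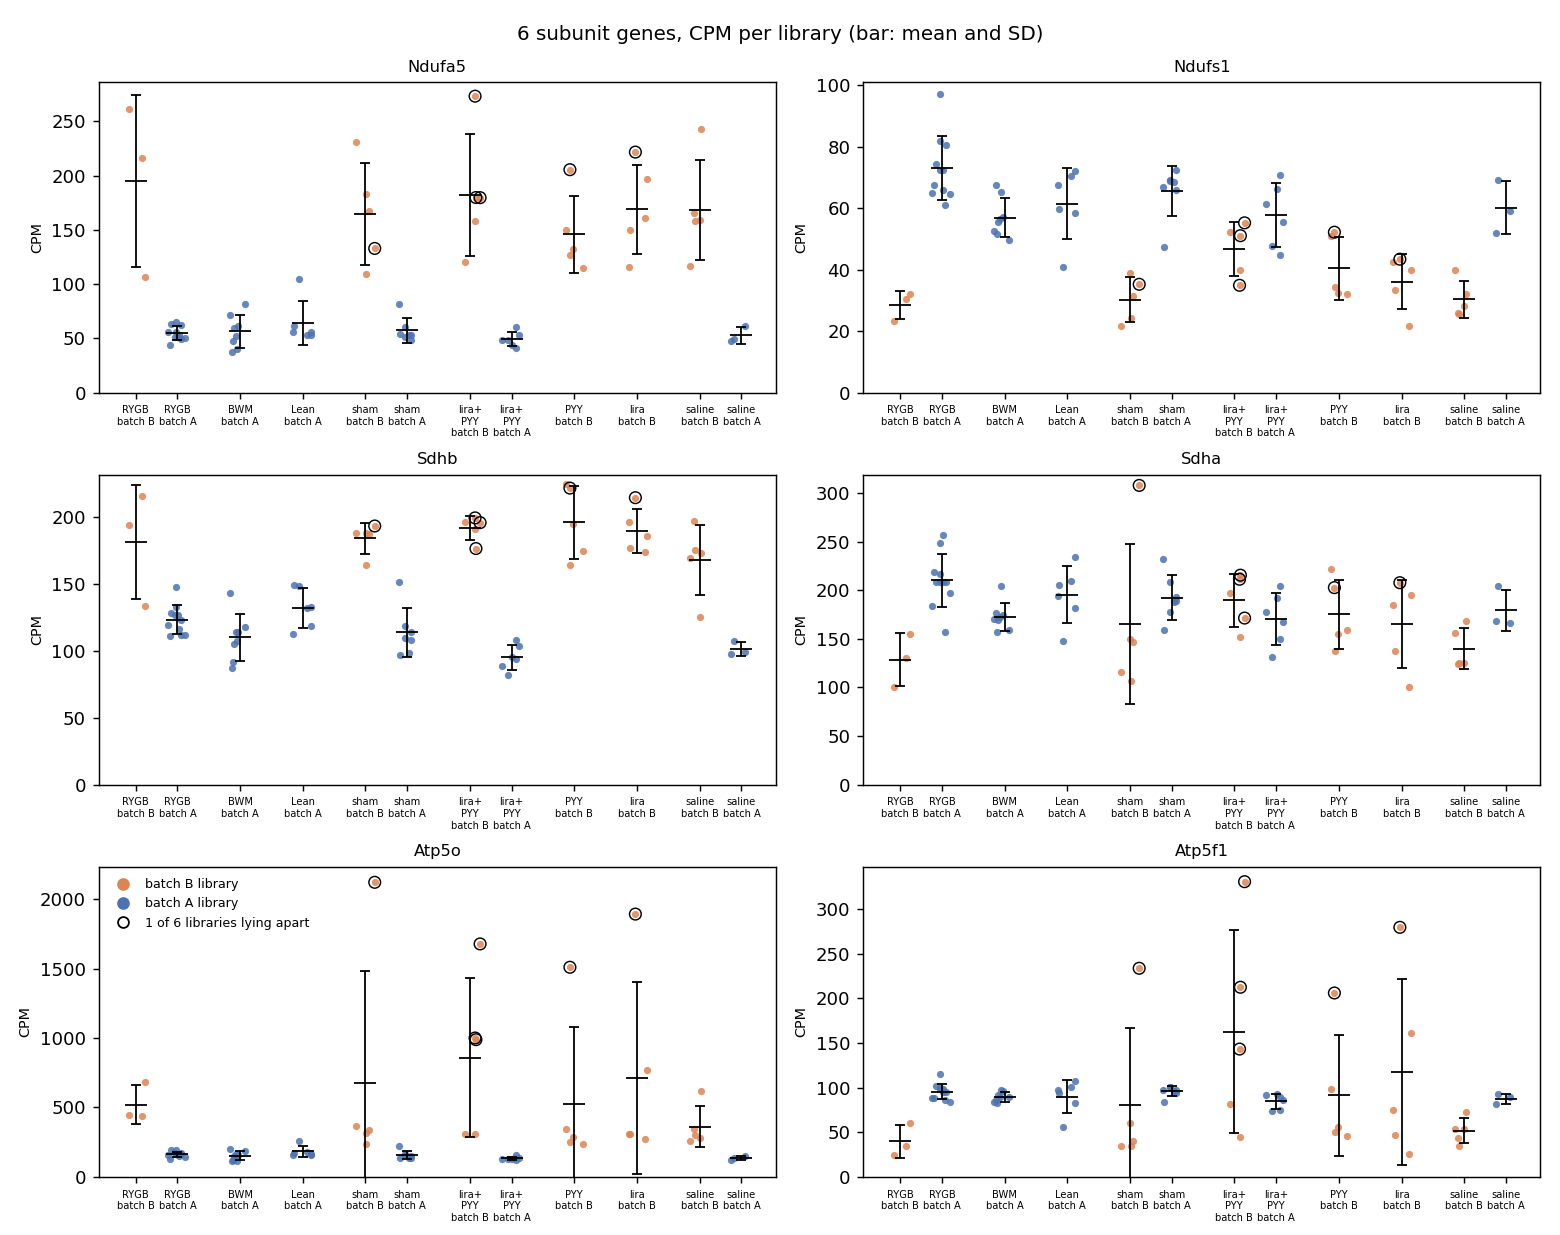
CPM (y axes, linear, from 0) of Ndufa5, Ndufs1, Sdhb, Sdha, Atp5o and Atp5f1 in every library, by group and batch, with mean and SD as bars that are clipped at 0. Ndufa5 separates the batches without overlap, Ndufs1 is lower in batch B, and Atp5o and Atp5f1 reach their highest values in the 6 ringed libraries.

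Exon length ran with the batch difference. Apart from the promoter spellings described further on, no other sequence property was examined. Among members shorter than 500 bases of exon, 17 of 18 were higher in batch B with a median log2 fold change of 1.28, and among 175 other protein-coding genes of that length 73.7% were higher with a median of 0.87. From 500 to 1000 bases 27 of 34 members were higher (median 0.76, against 0.49 and 57.5% for other genes), and from 1000 to 2000 bases 20 of 27 were higher and 2 lower (median 0.55, against 0.16 and 39.5%). From 2000 to 4000 bases 2 of 8 members were higher and 3 lower (median -0.13, against 0.04 and 29.6%), and the single member beyond 4000 bases, Ndufa10, was lower. Across the 88 members the correlation of log2 length and log2 fold change was -0.61 (Spearman's rho -0.58), and across all 16676 genes it was -0.17. These are correlations across genes, which share the same libraries and are not independent replicates. The median tested member measured 794 bases and the median tested gene 2685 bases. The part of length itself in the batch difference was not tested.

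**Figure D5:**
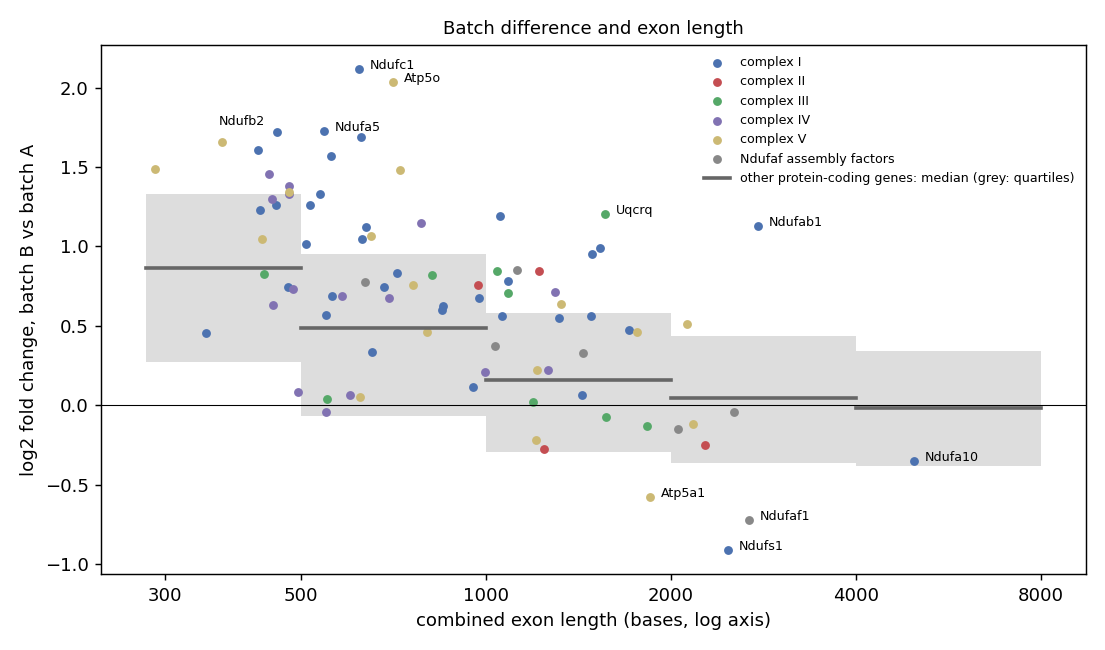
Log2 fold change of batch B versus batch A (y axis) against combined exon length in bases (x axis, log scale) for the 88 members, coloured by complex, with the median and quartiles of other protein-coding genes per length class in grey. Members under 500 bases have a median of 1.28 and those from 2000 to 4000 bases a median of -0.13.

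Other transcripts moved with batch beside the members. The share of counts from the 24 listed genes of the mitochondrial genome, none of them marked as protein-coding, was 0.136 to 1.502% in batch B and 0.0403 to 0.151% in batch A, and it was highest in the 3 RYGB libraries of batch B (0.593 to 1.502%). Of the 6 endothelial markers 4 were higher and 1 lower in batch B (summed level 105 to 395 CPM in batch B and 66.7 to 256 CPM in batch A), and of the 7 stellate cell markers 4 were higher and 1 lower (24.3 to 262 CPM and 30.4 to 109 CPM). Of the 9 hepatocyte markers 2 were higher and 3 lower (66750 to 435500 CPM and 115900 to 212500 CPM), and of the 8 Kupffer cell markers 0 were higher and 1 lower (183 to 525 CPM and 187 to 749.5 CPM). Of the 4 cholangiocyte markers 2 were higher, Sox9 and Epcam (6.08 to 43.6 CPM and 8.17 to 24.5 CPM), and of 5 tested T and NK cell markers 2 were higher, Gzma and Cd3g (4.81 to 19.1 CPM and 1.94 to 9.81 CPM). The blood marker Hbb was higher (1 of 3, with the 3 summing to 46.8 to 1321 CPM and 16.3 to 565.9 CPM). Tnnt3, the 1 muscle marker tested, was higher too and reached at most 1.49 CPM in any library. The 7 muscle markers together summed to 0 to 1.58 CPM and 0.0419 to 6.28 CPM, with Mb at up to 5.73 CPM. All CPM ranges for cell types are sums over each whole marker list. The counts without the 6 libraries were 3 higher and 1 lower for stellate cells, 2 and 4 for hepatocytes, 1 and 1 for Kupffer cells and 0 for blood, and those of the other marker lists were as before. Albumin and the other hepatocyte markers were present in every library. The part of these shifts in the levels of the members was not tested.

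Effects of treatment could be read within each batch. RYGB versus sham gave 1 called member in batch A (Ndufa4l2, 1.55% of all genes called, 0.738% lower) and 0 in batch B (1.43%, with 0.534% higher and 0.893% lower, 7 members at an unadjusted p under 0.05, and 0 by limma-voom). Without the 6 libraries, of which sham replicate 12 is one, 2 members were called in batch B, Ndufa4l2 lower (-5.97, adjusted p = 0.0392) and Ndufc1 higher (1.10, adjusted p = 0.0289). No share of all genes called is given for that fit. The 3 RYGB libraries of batch B held at most 0.5 counts of Ndufa4l2 each, all rounded to 0, so the size of -5.97 is not a reliable measure. The member of lowest p in batch B was Cox5a, with 64.8, 99.5 and 66.0 CPM in RYGB livers and 107, 105, 114, 137 and 140 CPM in sham livers, which did not overlap (log2 fold change -0.65, SE 0.19, adjusted p = 0.0595). In batch A Cox5a averaged 120 ± 14.6 CPM in RYGB and 115 ± 19.7 CPM in sham livers (SD, n = 11 and 7). The effect in batch A minus that in batch B was 0.72 (SE 0.22, adjusted p = 0.343), so the difference was not called. Cox4i2, next by p in batch B after Ndufa4l2, had 0.47, 1.66 and 0.6 CPM in RYGB livers and 0.13 to 0.49 CPM in sham livers (1.66, SE 0.56, adjusted p = 0.123).

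For liraglutide+PYY versus saline the batches diverged. In batch A no member was called (0% of all genes, 1 member and 2.11% of all genes at an unadjusted p under 0.05, and 0 members called in a fit of batch A alone), and 75 of the 88 had a value below 0, where 53.7% of all genes had a value above 0. In batch B 10 members were higher and 1 was lower in liraglutide+PYY livers, where 10.3% of all genes were called, 6.63% higher and 3.66% lower, so the share among members (12.5%) was near the background. The 11 were Atp5f1 (1.65, SE 0.42), Ndufs1 (0.62, SE 0.17), Ndufa4l2 (-2.65, SE 0.76), Atp5l, a membrane subunit of complex V (0.95, SE 0.30), Ndufs3, a core subunit of complex I (1.08, SE 0.35), Atp5a1 (0.55, SE 0.18), Uqcrfs1, the Rieske iron-sulphur protein of complex III (1.23, SE 0.40), Ndufab1 (0.99, SE 0.32), Uqcrc2 (1.43, SE 0.47), the assembly factor Ndufaf2 (0.74, SE 0.24) and Ndufs5, an accessory subunit of complex I (1.10, SE 0.38). The adjusted p ran from 0.0264 to 0.05. The difference of the effect, batch A minus batch B, was called for 0 members (0% of all genes), with 23 at an unadjusted p under 0.05 (19.8% of all genes), 0 by limma-voom and a median of -0.31. Lowest in p was Ndufaf2 (-1.09, SE 0.36, adjusted p = 0.206), then Atp5f1 (-1.70) and the assembly factor Ndufaf6 (-1.09).

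Of the 5 liraglutide+PYY libraries of batch B, 3 were among the 6 that lay apart. Atp5f1 had 44.3, 331, 143, 81.1 and 212 CPM in liraglutide+PYY replicates 7 to 11 and 44.0, 34.6, 53.8, 53.1 and 73.2 CPM in saline livers of the same batch. Replicates 8, 9 and 11 were thus the high ones, and replicate 7 lay inside the saline range. Uqcrc2 had 57.3, 290, 78.7, 92.8 and 320 CPM in liraglutide+PYY livers and 39.8, 46.6, 79.4, 54.6 and 90.8 CPM in saline livers, with replicates 8 and 11 far above the rest. Ndufs1 was more even, with 39.8, 55.2, 34.9, 52.2 and 51.1 CPM in liraglutide+PYY livers and 25.8, 25.6, 28.2, 39.9 and 32.2 CPM in saline livers. Without the 6 libraries 0 members were called. The log2 fold change of Atp5f1 was then 0.26, that of Uqcrc2 0.26 and that of Ndufs1 0.59 (adjusted p = 0.339), while Atp5l (-0.21) and Ndufs5 (-0.19) changed sign. Leaving out single libraries gave between 0 and 35 called members, with 0 without liraglutide+PYY replicate 8 or 11 or saline replicate 5, 6 or 7, 3 without liraglutide+PYY replicate 9 or saline replicate 8, 27 and 35 without liraglutide+PYY replicate 10 or 7, and 31 without saline replicate 9. No share of all genes called is given for these fits, so their counts are not read as particular to the members. Cell type markers moved in the comparison of liraglutide+PYY with saline in batch B. Lrat, of stellate cells (2.15, adjusted p = 0.0366, 1 of 7 markers), Hbb, of blood (2.35, adjusted p = 0.043, 1 of 3), and Cyp2c11, of hepatocytes (0.74, adjusted p = 0.0434, 1 of 9), were higher in liraglutide+PYY livers, and 0 of 8 Kupffer cell, 6 endothelial, 4 cholangiocyte, 5 T and NK cell and 1 muscle markers were called. The blood markers summed to 168.5 to 1321 CPM in liraglutide+PYY and 73.3 to 300.5 CPM in saline livers of batch B, and the stellate cell markers to 49.3 to 195.7 CPM and 48.9 to 83.5 CPM. No marker (0 of all lists) was called without the 6 libraries. The part of these shifts in the calls of the members was not tested.

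Genes around the respiratory chain were followed by fixed lists. Of 46 assembly factors and electron carriers outside the family, 0 rose and 1 fell in RYGB livers, the complex III factor Ttc19 (-0.29, SE 0.08, adjusted p = 0.0283). Of 12 regulators of mitochondrial gene expression 1 rose, Ppargc1a, the coactivator PGC-1 alpha that is known to drive respiratory genes (1.45, SE 0.30, adjusted p = 0.00106), with a value of 1.45 within batch A (adjusted p = 0.0213) and of 1.33 within batch B (adjusted p = 0.219). Of 13 citrate cycle genes 2 rose, Idh2 (0.79, SE 0.16, adjusted p = 0.000746) and Idh3g (0.32, SE 0.08, adjusted p = 0.00793), both isocitrate dehydrogenase genes. The rise of Idh2 was found in batch A (1.15, adjusted p = 2.85e-05) and not in batch B (0.025, adjusted p = 0.978). Of 76 mitochondrial ribosomal protein genes 0 were called, and of 88 cytosolic ones 1 rose. Over both batches 0 genes of these 5 lists were called in liraglutide+PYY, PYY and liraglutide livers. In batch B alone, liraglutide+PYY livers had 7 of 46 assembly factors and carriers higher, among them Cycs, which encodes cytochrome c (1.37, SE 0.44, adjusted p = 0.0434), and 2 of 13 citrate cycle genes, Dld (1.75, SE 0.54) and Mdh2 (1.21, SE 0.39). Of the regulators Gabpa was higher (1.93, SE 0.60) and Nrf1 lower (-0.70, SE 0.21), and 7 mitochondrial and 3 cytosolic ribosomal protein genes were higher. With the 6 libraries that lay apart left out, 0 genes of the 5 lists were called there, and Cycs had -0.45. In Lean livers Idh2 fell (-0.92, SE 0.21, adjusted p = 0.0108). Shares of all genes called in each of these comparisons are given above for the fits of all libraries. The list counts are not read as particular to the lists.

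Between batches the same lists moved in unlike ways. Cytosolic ribosomal protein genes were higher in batch B for 73 of 88 and lower for 2 (median log2 fold change 0.82), and mitochondrial ribosomal protein genes for 53 of 76 and lower for 10 (median 0.40). Assembly factors and carriers were higher for 28 of 46 and lower for 10. Citrate cycle genes were higher for 2 of 13 and lower for 4, with Ogdh (-0.94, SE 0.14) and Dld (0.99, SE 0.29) at the ends. Of the regulators 2 were higher, Tfb1m (0.47) and Tfb2m (0.40), which serve mitochondrial transcription and ribosomal RNA, and 3 lower, Yy1 (-1.955, SE 0.13), Ppargc1b (-1.70, SE 0.30) and Nrf1 (-0.41, SE 0.11). With the 6 libraries left out, 0 citrate cycle genes were higher and 7 lower, with Dld at 0.02, and 1 regulator was higher and 5 lower, Gabpa (-0.54) among them. In the fit of all libraries, 4456 (31.7%) of 14039 protein-coding genes outside the family were higher and 3801 lower. The counts of citrate cycle genes and regulators are therefore not read as particular to these lists. No such share is given for the fit without the 6 libraries.

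NRF1, GABPA (an ETS family factor) and YY1 are known regulators of respiratory subunit genes, and the promoters were searched on both strands for short spellings of their motifs. RefSeq promoters (GRCr8, 250 bases before to 50 after the start) were matched for 80 of the 93 members, and the spellings were chosen after others had been tried. NRF1's spelling (GCGCA, then N for any base, then GCGC) was found in 16 (20%) members and 5.67% of all 21851 promoters, the ETS motif CCGGAAG in 20 (25%) and 10.74%, and YY1's AAGATGGCG in 10 (12.5%) and 2.07%. The CCAAT box (CCAAT) was found in 26 (32.5%) and 37.96%, and the hypoxia response core (ACGTG) in 24 (30.0%) and 19.85%. The ETS spelling ends with the letters AAG that begin the YY1 spelling, so these can overlap, and 40 members held at least 1 of the NRF1, ETS and YY1 spellings. The median batch difference was close with and without a match, at 0.80 and 0.73 for NRF1, 0.82 and 0.69 for ETS and 0.81 and 0.74 for YY1 (log2 fold change over tested members). A match is a string of letters and not a shown binding site. Shown are the promoters of Atp5o and Ndufs1, the members with opposite batch differences described above, and of Ndufa6, the complex I gene of highest level, each 5′ to 3′ on its minus strand, with matches to the NRF1, ETS and YY1 spellings or their reverse complements in capitals.
Atp5o (chr11:44657434-44657733, NRF1): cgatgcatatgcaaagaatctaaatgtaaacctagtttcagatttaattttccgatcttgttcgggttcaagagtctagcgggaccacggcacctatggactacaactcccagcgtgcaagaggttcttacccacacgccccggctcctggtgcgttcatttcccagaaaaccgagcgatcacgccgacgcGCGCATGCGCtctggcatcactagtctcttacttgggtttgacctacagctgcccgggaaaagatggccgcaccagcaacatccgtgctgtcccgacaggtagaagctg
Ndufs1 (chr9:72073556-72073855, ETS): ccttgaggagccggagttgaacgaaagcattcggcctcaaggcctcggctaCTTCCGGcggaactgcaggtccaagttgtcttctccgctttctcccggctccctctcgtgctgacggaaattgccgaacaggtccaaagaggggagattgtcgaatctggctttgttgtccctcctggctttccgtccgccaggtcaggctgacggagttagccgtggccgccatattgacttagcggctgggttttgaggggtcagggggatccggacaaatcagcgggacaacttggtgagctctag
Ndufa6 (chr7:115750268-115750567, ETS and YY1): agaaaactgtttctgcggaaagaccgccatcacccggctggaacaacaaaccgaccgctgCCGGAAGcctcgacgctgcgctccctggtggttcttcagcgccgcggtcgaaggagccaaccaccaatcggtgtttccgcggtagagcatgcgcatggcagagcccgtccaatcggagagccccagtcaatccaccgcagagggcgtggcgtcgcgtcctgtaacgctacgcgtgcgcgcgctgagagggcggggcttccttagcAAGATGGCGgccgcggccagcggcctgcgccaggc
The Atp5o match began 59 bases before the start, that of Ndufs1 199 bases before it and the ETS match of Ndufa6 190 bases before it.

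Some members are uncertain as single genes. Reads that matched several places were split, and in the median member 36.2% of libraries held a fraction of a count. In 4 members this was so in over 90% of libraries. Ndufa10l1 and Cox7a2l2 are, by their names, like Ndufa10 and Cox7a2, and such copies may share reads. Atp5s and Atp5sl came in by their names, and neither is a subunit of the complex V enzyme core.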

How the data were processed

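Whole liver of 69 rats was profiled by single-end, stranded poly(A) RNA-seq. The authors demultiplexed with bcl2fastq 2.20.0.422, trimmed with cutadapt 2.5, aligned with STAR 2.7.2b to Rnor_6.0 and counted with featureCounts 1.6.4. The authors deposited estimated counts for each gene, not normalised, in which reads that match or overlap several genes were split into fractions, so that 15.9% of the values are not whole. They were rounded to whole numbers.

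Groups and batches came from the labels. All 69 libraries entered 1 model of group and batch in edgeR 4.0.16 (R 4.3.3, TMM scaling, filterByExpr, robust quasi-likelihood test), with Benjamini-Hochberg adjustment over all tested genes and a threshold of 0.05. A model with a term per group and batch gave values within batches. SE is the absolute log2 fold change divided by the root of F, and 95% intervals are 1.96 SE to either side. Total counts ranged from 9110860 to 27559144, and intervals of summed counts are exact and cover counting error only. The labels give separate samples but no animal numbers, so p-values measure the spread between these samples. The code was tested on simulated data.

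Members and lists were chosen with earlier results of these data known. Values are given for the 10 members of lowest p in each comparison with calls (all if fewer), otherwise for the 3 of lowest p, for the highest member per length in each complex, for isoforms of other tissues with their liver partners, for Sdha to Sdhd and for Cyc1. For the batch difference within single groups, counts and the genes named elsewhere are given. Other genes (Cox4i1, Ndufa4, Uqcrc2 and Ndufc1 among them) were named after their values were seen. Alternatives were DESeq2 1.42.0 (size factors, and its Wald test), limma-voom (limma 3.58.1), no filter, no batch term, unrounded counts, fewer groups, single batches, a replicate block, and leaving out libraries. Of 104 genes with a matching name, 11 were left out as not protein-coding.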

Additional observations from a re-analysis of the deposited data

Results flagged for a closer look

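Within each group and batch, the libraries with the highest and lowest value were tested for a gap to the others (Dixon's test), for the summed level of each complex and for chosen members. Only the 9 combinations of group and batch with 4 to 10 libraries were tested, which leaves out RYGB in both batches and saline in batch A. In 126 tests 32 gaps were found, where chance gives about 1 in 20 for independent items fixed beforehand. Many of these items share libraries and counts, and the members were chosen with earlier results known. The count is therefore not read as an excess over chance.

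Sham replicate 12, one of the 6 libraries that lay apart, was the highest of its 5 batch B libraries for complex I (7785.0 CPM, others at most 4804.6), complex II (1258.5 CPM, others at most 683.7), complex III (2046.9 CPM), complex V (9070.4 CPM) and all members (23339.3 CPM, others at most 15222.1), and for Atp5o (2120.7 CPM), Atp5f1 (233.6 CPM) and Atp5b (2497.3 CPM). PYY replicate 5 stood out for Atp5o (1509.0 CPM, others at most 343), as did saline replicate 9 (616.3 CPM, others at most 343.9).

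In batch A, sham replicate 4 was the highest sham library for complex I (3677.4 CPM, others at most 2820.3), complex III (1412.6 CPM), complex IV (2689.0 CPM), complex V (4758.4 CPM) and all members (13396.5 CPM, others at most 10317.2). It was also highest for Ndufa5 (81.58 CPM), Atp5o (222.8 CPM), Sdhb (151.5 CPM), Cox4i1 (512.5 CPM) and Atp5b (1426.2 CPM). Lean replicate 1 was the highest Lean library for complex I (3462.3 CPM, others at most 2786), complex IV (2582.5 CPM), all members (11878.0 CPM, others at most 10188.9), Ndufa5 (105.1 CPM) and Atp5o (261 CPM).

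Liraglutide+PYY replicate 4 was highest in its batch A group for complex IV (1915.9 CPM) and Cox4i1 (370.7 CPM), replicate 5 for Ndufa4l2 (0.35 CPM), and replicate 3 was lowest for complex II (471.7 CPM, others at least 544.4). Sham replicate 1 was lowest in batch A for Ndufs1 (47.39 CPM, others at least 65.96) and Atp5f1 (83.95 CPM), and sham replicate 11 lowest in batch B for Sdhb (163.7 CPM, others at least 187.4).

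Respiratory chain genes outside the protein-coding rows also carried counts. Cox6b1, Ndufb1 and Ndufa13 averaged 1155.49, 1861.66 and 633.96 counts per library, and they were left out because the table marks their rows with another biotype.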

How the results depend on the processing

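The count of called members stayed within 1.5 times its value for every comparison over both batches under other size factors, DESeq2, limma-voom, no filter, unrounded counts, no batch term (where run) and the 55 libraries of 6 groups (where run). RYGB versus sham gave 0 called members in batch B alone. RYGB versus BWM gave 2 in batch A alone and 0 to 1 when single libraries were left out. Liraglutide versus saline gave 0 to 1 when single libraries were left out. Without the 6 libraries that lay apart, Atp5l (-0.211) and Ndufs5 (-0.193) reversed for liraglutide+PYY versus saline in batch B. There, the 11 called members became 10 with DESeq2 size factors, 3 with limma-voom and 1 with no filter, alternatives chosen after seeing the data, as were sums, ratios and lists without the 6 libraries. The cause was not tested.

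Ndufa4l2 in RYGB versus sham had a log2 fold change of -3.24 to -2.70 with single libraries left out (adjusted p at most 0.00165). For batch B versus batch A, limma-voom called 63 members higher and 8 lower, with no share of all genes set beside these counts. Leaving out single libraries reversed 0 of the 24 named members.

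Samples share replicate numbers but no stated pairing, and the check of deviations gave correlations of -0.38 to 0.19 over 12 pairs of RYGB and sham. With the replicate number as a block, 63 members were called between batches (59 higher and 4 lower), 1 for RYGB versus sham (Ndufa4l2, -2.34, adjusted p = 0.0199) and 0 for the other treatment comparisons. No share of all genes called is given for that fit, so its counts are not read as particular to the members. Among the members named with a batch difference, Sdhd (0.60, adjusted p = 0.0893), Atp5b (0.38, adjusted p = 0.0555), Ndufa10 (-0.24, adjusted p = 0.108) and Sdhc (-0.12, adjusted p = 0.452) then lost their call.

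Depth limits the rarest members most, since Ndufa4l2 never exceeded 25 counts. The batch B group of RYGB held 3 libraries of 9110860 to 13941960 counts.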
